A study of Drosophila melanogaster with 6 samples.

Results

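The ribosomal protein genes of Drosophila melanogaster were followed in the flight muscles of adults in which the transcription factor M1BP had been depleted by RNA interference. The cytosolic ribosomal protein genes are here the genes whose deposited symbol begins with RpL or RpS and goes on with a digit or with P, in that letter case. This gave 91 of the 17494 genes in the count table. By the letter L or S of their symbols, 54 were counted with the large subunit, its stalk included, and 37 with the small subunit. Genes whose symbols end in -like were kept in these groups. The rule used the gene symbols and no measured value. Each of the 6 samples was total RNA of indirect flight muscles that were dissected by hand, in batches of 15 flies, from 30 females at an age of 2 days. In 3 WT samples the driver Mef2-GAL4 was crossed to w1888, and in 3 M1BP RNAi samples Mef2-GAL4 drove 1 hairpin against M1BP (RNAi line #1). All samples thus carried the driver, and the WT samples carried no control hairpin. Mef2-GAL4 is active from muscle precursors onwards and also in some neurons, and the study states that Mef2 is expressed in the fat body too.

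A cytosolic ribosome holds 1 copy of nearly every ribosomal protein, so their genes are usually transcribed together and at high levels, and flies that lose a gene copy often show the slow growth and thin bristles known as the Minute phenotype. In Drosophila these genes start transcription at a polypyrimidine initiator, the TCT motif, and use the TBP-related factor Trf2, which M1BP is known to bring to their promoters. M1BP binds the core promoter element Motif 1. Several ribosomal proteins are encoded by duplicated genes, of which a copy may be used mainly in the testis or the ovary.

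The deposited counts summed to between 37908823 and 64871987 per sample. Genes of the mitochondrial genome took 71.5% to 76.3% of the counts of a WT sample and 54.0% to 59.4% of those of an M1BP RNAi sample, so that levels are given below as normalised counts (counts divided by the effective library size with TMM factors, and brought to the mean effective size of the 6 samples). M1BP itself had 149, 123 and 119 normalised counts in the WT samples and 49.5, 50.1 and 52.0 in the M1BP RNAi samples. The groups did not overlap, and M1BP fell by 1.36 on the log2 scale (SE 0.16, edgeR quasi-likelihood test, adjusted p = 0.000336), or by 0.61 with libraries scaled by total counts (adjusted p = 0.0136). Its adjusted p was 0.00103 to 0.00228 when single samples were left out. The 8 flight muscle markers were present in every sample, and they too moved with the condition, with 5 higher and 0 lower at 0.05 and a summed level of 868626 to 885751 normalised counts in WT and 1378800 to 1898070 upon M1BP RNAi. Act88F (log2 fold change 1.83) and Mhc (1.63) passed 0.001, while TpnC4 was at -0.23 (adjusted p = 0.199), and above 0 with libraries scaled by total counts. The markers of neurons (4 of 4 lower at an adjusted p of at most 0.05, summed level 2691 to 3618 in WT and 1337 to 1762 upon M1BP RNAi), fat body (4 of 5 tested lower and 1 higher, 48627 to 85807 and 12243 to 25920), trachea (2 of 2 lower, 585 to 611 and 235 to 371) and tendon (2 of 2 lower, 223 to 426 and 120 to 195) moved with the condition, and so did those of blood cells (2 of 3 tested lower, 5886 to 7057 and 3942 to 5694). Their part in the values below was not tested. In bulk RNA, fewer cells of a type and less RNA per cell cannot be told apart. The methods describe the libraries as made from triplicate RNA preparations and experiments in general as independent biological replicates.

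The ribosomal protein genes were higher upon M1BP RNAi nearly throughout. Of the 91 genes, 83 had enough counts to be tested (51 of the large and 32 of the small subunit). Of these, 19 rose at an adjusted p of at most 0.001 and 0 fell, where 11.0% of all 9276 tested genes rose and 6.58% fell. With the threshold at 0.05, 73 were higher and 0 lower, beside 29.1% and 27.0% of all tested genes. In either direction 17.5% of all tested genes passed 0.001 and 56.2% passed 0.05. The 3 M1BP RNAi samples lay above all 3 WT samples for 75 members, which held for 33.1% of all tested genes, and the reverse held for 0 members and 31.1% of all tested genes. The log2 fold change was above 0 for 82 of the 83 members, against 51.2% of all tested genes. edgeR found 0 members lower even at an unadjusted p under 0.05, and the Wald test of DESeq2 found 0 lower at either threshold.

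The size of the change was close to a doubling for the typical member. The median log2 fold change was 1.10, with the middle of the family between 0.79 and 1.52 (quartiles) and the extremes at -0.32 and 2.33, while the median of all tested genes was 0.02. At least a 2-fold higher level was seen in 49 members and at least a 1.5-fold higher level in 71. The members took 1.45%, 1.34% and 1.78% of the counts of nuclear genes in the WT samples and 3.45%, 2.86% and 3.00% in the M1BP RNAi samples. The lowest M1BP RNAi sample was thus above the highest WT sample in this share, which does not depend on TMM factors. When libraries were scaled by their total counts, the median of all tested genes moved to 0.77 and that of the members to 1.84, and with upper quartile factors they moved to -0.12 and 0.96, so that the members stood 1.07 to 1.08 above all tested genes under either. Leaving out 1 sample at a time gave member medians of 0.93 (without WT replicate 2) to 1.36 (without WT replicate 3).

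**Figure D1:**
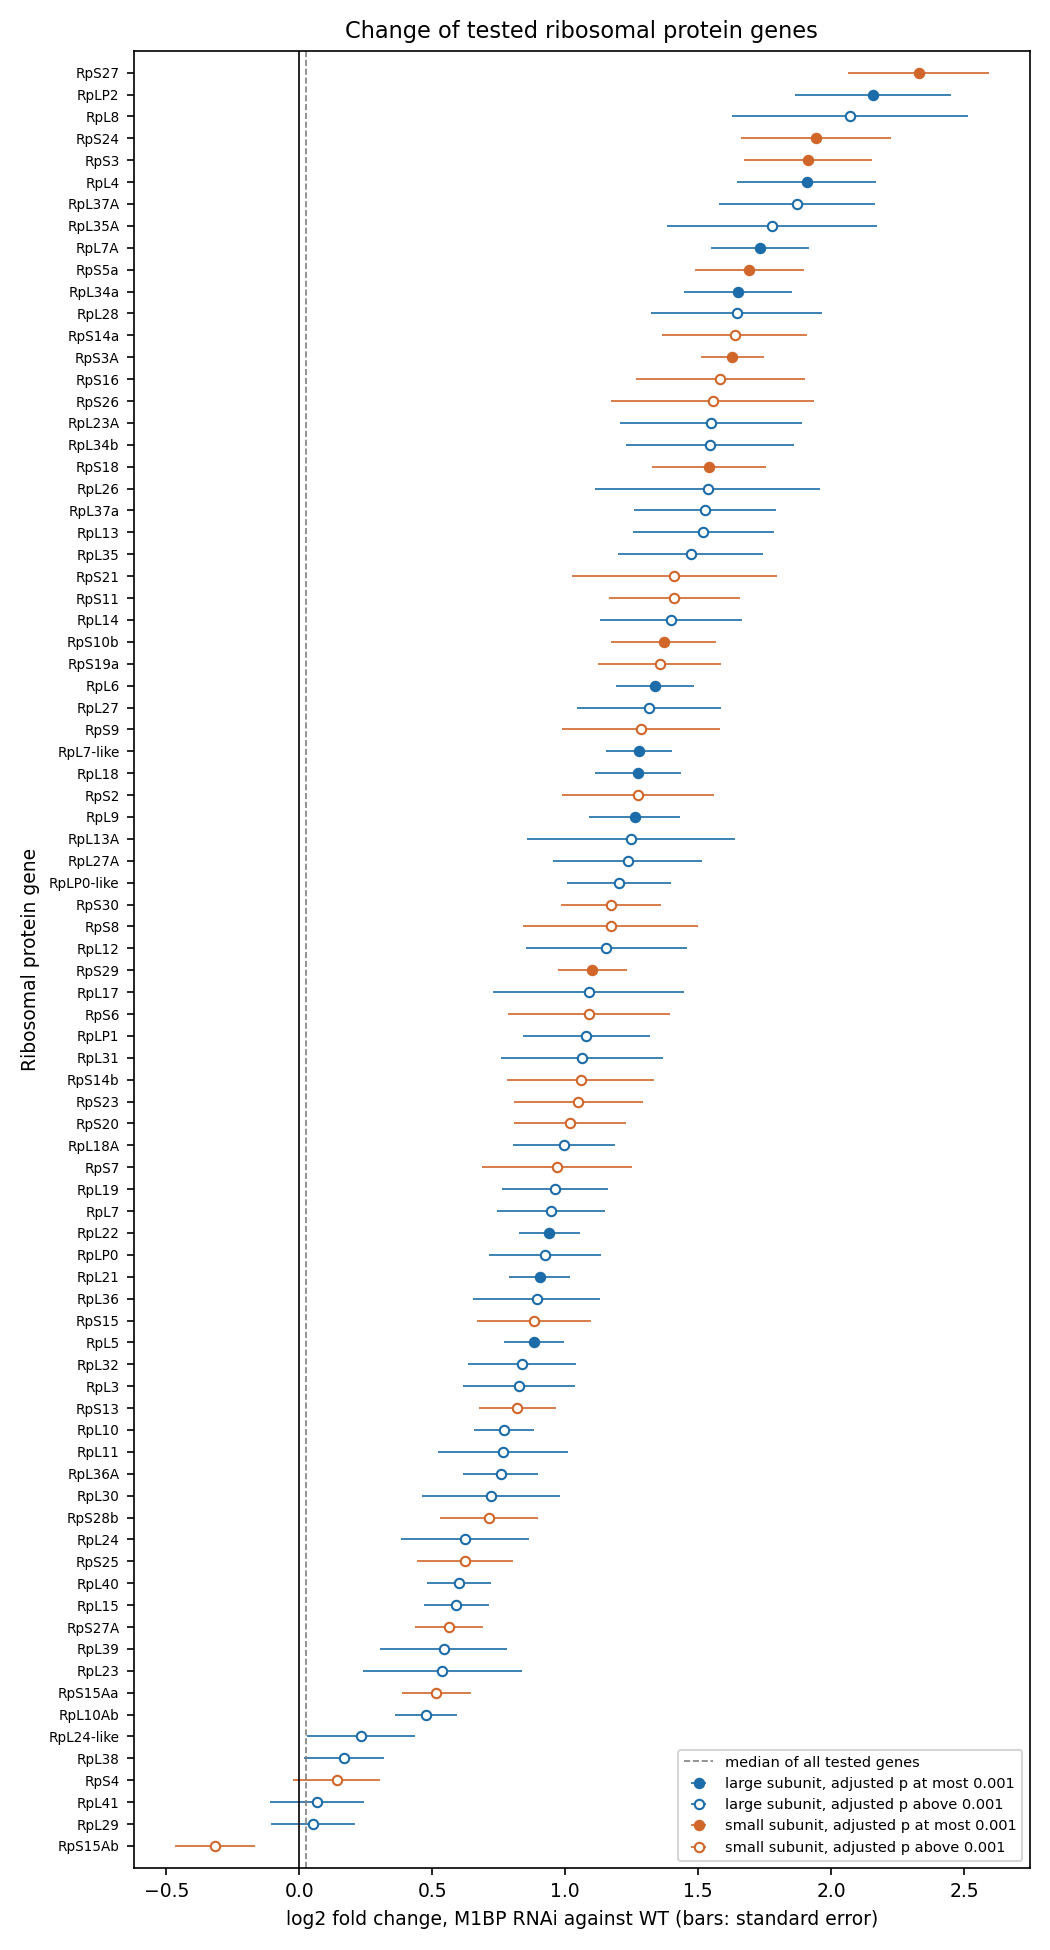
Log2 fold change of 82 of the 83 tested ribosomal protein genes between M1BP RNAi and WT (x axis, bars are standard errors), ordered by size, with large subunit genes in blue, small subunit genes in orange and filled points for genes past 0.001 (adjusted p). The points run from -0.32 for RpS15Ab to 2.33 for RpS27, and all but RpS15Ab lie to the right of 0.

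How many members passed 0.001 depended on single libraries much more than the direction did. Without WT replicate 1 only RpS3A passed, without WT replicate 2 RpS3A, RpL7-like and RpLP2 did, and without M1BP RNAi replicates 1, 2 and 3 there were 7, 4 and 5, against 14 without WT replicate 3. With the threshold at 0.05 the count stayed between 62 and 73 of 83 in these 6 fits, with 0 lower at 0.001 in each. At 0.05, 1 member was lower in 1 of them, RpS15Ab without WT replicate 2 (log2 fold change -0.43, adjusted p = 0.0467). DESeq2, run without the count filter, called 68 of 88 members higher at 0.001, including all 19, along with 3038 of 13163 genes in all. It gave an adjusted p to only 84 members and 10143 genes, and called 30.0% of these genes. On the 9276 genes of the edgeR test it called 67 of 83 members and 3049 genes.

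RpS27, a zinc-binding protein of the small subunit, showed the highest fold change of the family. Its gene (chr3R:25245955-25247514, minus strand, release 6) had 837, 634 and 1131 normalised counts in the WT samples and 5473, 3295 and 4319 in the M1BP RNAi samples. All 3 M1BP RNAi samples were well above WT, and RpS27 rose by 2.33 (SE 0.26, adjusted p = 0.000285). RpS24 had 1570, 1091 and 2291 normalised counts in the WT samples and 7787, 5227 and 6038 in the M1BP RNAi samples, without overlap. It rose by 1.94 (SE 0.28, adjusted p = 0.000911). RpS3, which lies where the mRNA enters the small subunit, had 2122, 1595 and 2810 in the WT samples and 10075, 6931 and 7593 in the M1BP RNAi samples. Its groups also stood apart, and it rose by 1.91 (SE 0.24, adjusted p = 0.000446). The other small subunit members that rose were RpS5a, RpS3A, RpS18, RpS10b and RpS29, with log2 fold changes of 1.69, 1.63, 1.54, 1.37 and 1.10.

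RpS3A was the member with the lowest adjusted p. Its gene lies on the small chromosome 4 (chr4:65225-67207, minus strand). It had 12870, 13612 and 13279 normalised counts in the WT samples and 38510, 42681 and 41681 in the M1BP RNAi samples. The samples of a group differed little and the groups were far apart, giving a log2 fold change of 1.63 (SE 0.12, adjusted p = 3.85e-05). RpS3A was the only member on that chromosome, where the median of the 83 tested genes was -0.71. It alone among the members passed 0.001 whichever sample was left out.

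In the large subunit, RpLP2, an acidic protein of the stalk that recruits the elongation factors, showed the highest fold change. It had 1154, 569 and 1159 normalised counts in the WT samples and 5157, 4256 and 3440 in the M1BP RNAi samples. The groups did not overlap, and RpLP2 (chr2R:16586129-16586732, plus strand) rose by 2.16 (SE 0.29, adjusted p = 0.000651). RpLP1, its partner, had 3000, 1862 and 3196 in the WT samples and 6997, 5409 and 4628 in the M1BP RNAi samples. RpLP1 also showed no overlap, with a log2 fold change of 1.08 (SE 0.24) and an adjusted p of 0.00639. RpLP0, the base of the stalk, had 2956, 2306 and 4076 in the WT samples and 6562, 5571 and 5600 in the M1BP RNAi samples. Its log2 fold change was 0.92 (SE 0.21, adjusted p = 0.00714), so that the 3 stalk genes were all higher without overlap while only RpLP2 passed 0.001.

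RpL4, a protein of the exit tunnel through which the new peptide leaves, had 1241, 771 and 1290 normalised counts in the WT samples and 5443, 3563 and 3388 in the M1BP RNAi samples. Again no samples overlapped, and RpL4 rose by 1.91 (SE 0.26, adjusted p = 0.000666). RpL8, which lies close to the centre where peptide bonds are made, had 505, 239 and 744 in the WT samples and 3143, 1446 and 1687 in the M1BP RNAi samples. Every M1BP RNAi sample was above every WT sample, but the samples within a group differed more than for any other member (SD within groups 0.72 on the log2 scale), and the log2 fold change of 2.07 (SE 0.44) had an adjusted p of 0.0054. RpL7A, RpL34a, RpL6, RpL7-like, RpL18, RpL9, RpL22, RpL21 and RpL5 made up the rest of the large subunit genes that rose, with log2 fold changes from 1.73 for RpL7A to 0.88 for RpL5. RpL5, which binds the 5S rRNA, had 12483, 12011 and 12629 normalised counts in the WT samples and 22459, 23933 and 21995 in the M1BP RNAi samples, the narrowest spread within groups of any member (SD 0.05, SE 0.11, adjusted p = 0.000508). RpL10, which is added late in large subunit assembly, lay just outside the threshold, with a log2 fold change of 0.77 (SE 0.11). RpL32, known as rp49 and often taken as a reference gene in fly RT-qPCR, had 3998, 2906 and 4143 in the WT samples and 8238, 5764 and 5720 in the M1BP RNAi samples. The M1BP RNAi samples were all higher, with a log2 fold change of 0.84 (SE 0.20) and an adjusted p of 0.00938.

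10 members did not reach an adjusted p of 0.05, and samples of the groups overlapped for 8 of them. RpS15Ab was the only one with a log2 fold change below 0. It had 959, 754 and 1029 normalised counts in the WT samples and 824, 704 and 675 in the M1BP RNAi samples, so 1 M1BP RNAi sample lay inside the WT range, and its log2 fold change was -0.32 (SE 0.15, adjusted p = 0.109). RpL29, a short protein that yeast can do without, had 3226, 2594 and 3607 in the WT samples and 3640, 3198 and 2939 in the M1BP RNAi samples. RpL41, the smallest ribosomal protein, had 11523, 9354 and 9724 in the WT samples and 12691, 10934 and 8420 in the M1BP RNAi samples. Both gave overlapping groups, with log2 fold changes of 0.05 (SE 0.16, adjusted p = 0.795) and 0.07 (SE 0.18, adjusted p = 0.768). RpS4 (0.14, SE 0.16), RpL38 (0.17, SE 0.15), RpL24-like (0.23, SE 0.20), RpL23 (0.54, SE 0.30) and RpL39 (0.54, SE 0.24) overlapped too, with adjusted p-values from 0.086 to 0.492. RpL24 had a log2 fold change of 0.62 (SE 0.24, adjusted p = 0.0591), and its groups stood apart without reaching 0.05. With upper quartile factors RpL29, RpL41 and RpS4 also lay below 0, and with scaling by total counts RpS15Ab lay above it.

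The large and the small subunit gave similar medians. The median log2 fold change was 1.08 over the 51 large subunit members (quartiles 0.77 and 1.50, range 0.05 to 2.16) and 1.17 over the 32 small subunit members (quartiles 0.87 and 1.54, range -0.32 to 2.33). At 0.001, 11 of 51 and 8 of 32 rose, and at 0.05, 44 and 29 were higher. The groups of samples stood apart for 45 large and 30 small subunit members. The difference between the subunits in median change, 0.09, is small beside the spread of the members of either (SD 0.50 and 0.55) and was not tested, since genes are not replicates. In summed counts the subunits did not keep a fixed ratio. The large subunit members had 1.62, 1.53 and 1.52 counts per count of the small subunit members in WT and 1.35, 1.39 and 1.29 upon M1BP RNAi. Every M1BP RNAi sample was below every WT sample, which in 3 against 3 samples gives the smallest p that an exact two-sided permutation test allows (p = 0.1). The absence of overlap depended on a single gene. Without RpS3A, the small subunit gene with the highest counts, the ratios were 1.86, 1.81 and 1.70 in the WT samples and 1.58, 1.75 and 1.59 in the M1BP RNAi samples. M1BP RNAi replicate 2 then lay within the WT range and replicates 1 and 3 still below it, so that the groups overlapped. The omission of no other single member made them overlap. RpL40 and RpS27A, each made as a fusion with ubiquitin, had log2 fold changes of 0.60 (SE 0.12) and 0.56 (SE 0.13), with adjusted p-values of 0.00402 and 0.00728.

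The members also varied together between replicates of a group. Relative to the WT mean of each gene, the median member stood at 0.01, -0.38 and 0.36 on the log2 scale in WT replicates 1, 2 and 3, and at 1.45, 0.98 and 1.05 in the M1BP RNAi replicates. The median of all tested genes stayed within 0.04 of 0 in these samples. The lowest WT value was in replicate 2 for 77 of 83 members, against 33.7% of all tested genes. The order replicate 2, 1, 3 was that of 72 members (86.7%) and of 19.8% of all tested genes. Upon M1BP RNAi the highest value was in replicate 1 for 72 members, against 36.4% of all tested genes. The deviations of 2 members from their group means had a median correlation of 0.87 over 3403 pairs of members, and 94.9% of these correlations were above 0. These correlations rest on the same 6 libraries and carry no test, and none were computed for pairs of other genes to set beside them.

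**Figure D2:**
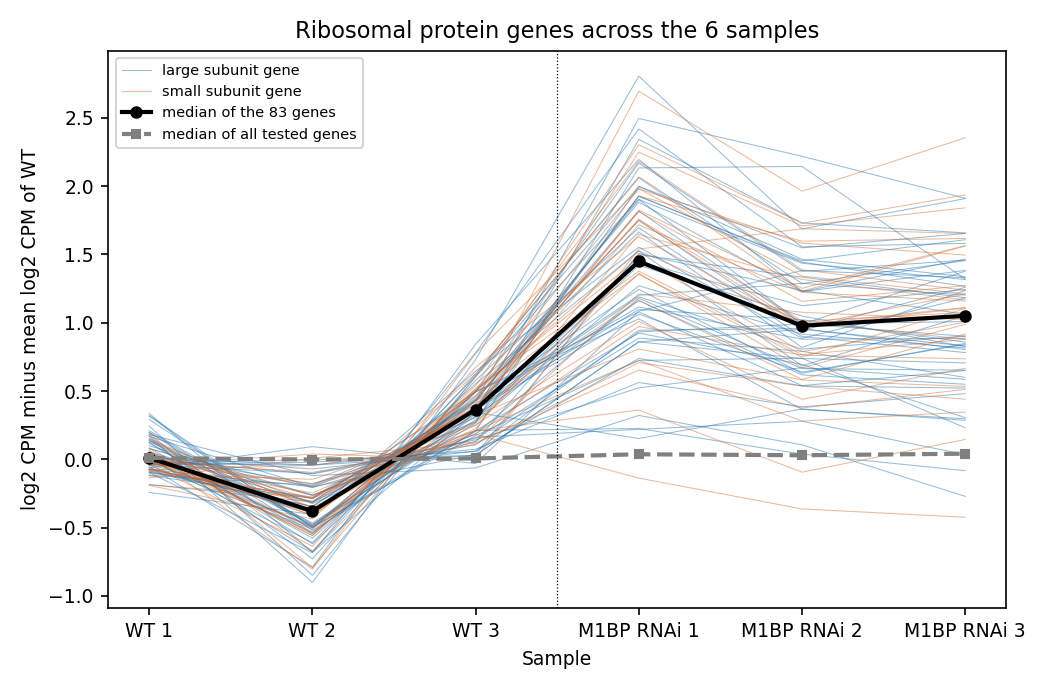
Log2 CPM of each tested ribosomal protein gene minus its mean in WT (y axis) in the 6 samples (x axis), 1 thin line per gene that joins the values of that gene, large subunit in blue and small subunit in orange. The thick black line is the median of the 83 genes (0.01, -0.38 and 0.36 in WT, 1.45, 0.98 and 1.05 upon M1BP RNAi), and the dashed grey line the median of all tested genes, which stays near 0.

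The members had wide errors. The SD within groups had a median of 0.34 over the members and 0.22 over all tested genes on the log2 scale. It was 0.24 for the 19 members that rose and 0.37 for the other 64. Of those 64, 33 had a log2 fold change of at least 1, and their median SD was 0.46. The 19 are not the 19 with the highest fold changes.

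The M1BP RNAi replicate with the highest levels also differed in other genes. In replicate 1 the female germline gene osk had 123 counts, against 0, 0 and 0 in WT and 0 and 3 in the other M1BP RNAi samples. The summed level of the 6 germline markers was 46.5 to 58.2 normalised counts in WT and 23.0 to 247 upon M1BP RNAi. Not all of them went this way. The only 1 tested, aub, had 49.6, 37.2 and 40.7 normalised counts in the WT samples and 33.0, 17.0 and 20.2 in the M1BP RNAi samples. Its log2 fold change was -0.86 (SE 0.31, adjusted p = 0.043). RpS5b, a copy used mainly in the female germline, had 57 counts in M1BP RNAi replicate 1 and 2 to 5 in the other 5 libraries. Without that library the median log2 fold change of the members was 0.95, 7 of 83 passed 0.001, 62 were higher at 0.05 and 0 fell. Of the 6 testis markers, dj, ProtA, ProtB and sa had 0 counts in every sample. Mst87F had 1, 1 and 1 counts in the WT samples and 7, 7 and 2 in the M1BP RNAi samples. The marker can had 1, 0 and 2 in the WT samples and 1, 0 and 0 in the M1BP RNAi samples. These counts were too low to be tested.

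The level of a member went with the size of its change. Levels between genes are given as normalised counts per kilobase of exon. The median member had 2588 in the WT samples and 6033 in the M1BP RNAi samples, and each of the 83 tested members lay above 76.5, the median of all tested genes in WT. The highest levels in WT were those of RpL41 (31875), RpL39 (21124), RpS27A (12384), RpL36A (10034) and RpS3A (9825). Of these only RpS3A rose at 0.001, to 30361, while RpL41 was at 33379, RpL39 at 30766, RpL36A at 16968 and RpS27A at 18296 upon M1BP RNAi. The lowest were RpLP0-like (96.5), RpL7-like (128), RpL8 (423), RpS26 (429) and RpL35A (531). RpS26, near the exit of the mRNA, and RpL35A had log2 fold changes of 1.55 (SE 0.38, adjusted p = 0.00986) and 1.78 (SE 0.39, adjusted p = 0.00632). Over the 83 members Spearman's rho between log2 fold change and level per kilobase in WT was -0.60, a description in which both measures share the WT counts and the libraries. The levels were accordingly closer to each other upon M1BP RNAi, where the SD of the log2 level over the members was 1.31, 1.36 and 1.36 in the 3 samples, against 1.52, 1.66 and 1.43 in WT. Within these samples the SD of each M1BP RNAi sample was below that of each WT sample.

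**Figure D3:**
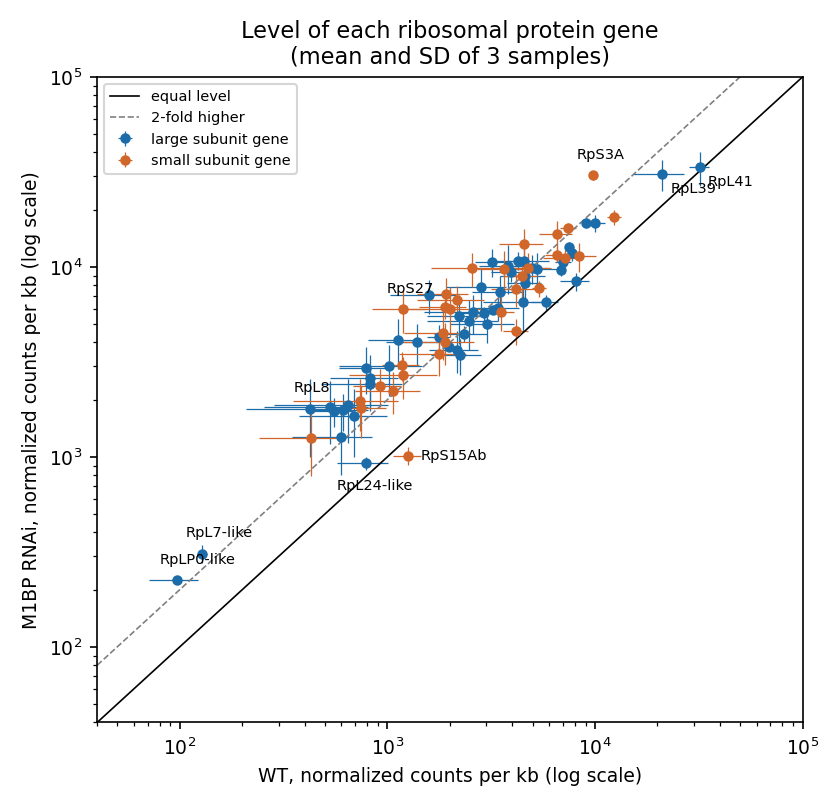
Level of each tested ribosomal protein gene in WT (x axis) and upon M1BP RNAi (y axis), as mean normalised counts per kilobase of exon of 3 samples with bars of 1 SD, both on log scales, with large subunit genes in blue and small subunit genes in orange. The solid line marks equal levels and the dashed line a 2-fold higher level upon M1BP RNAi. RpL41 at 31875 and 33379 lies next to the line of equal levels and RpS15Ab just below it, while genes with low WT levels such as RpL8 (423 and 1783) lie far above it.

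Other genes of similar level or length did not show a shift of this size. The 501 tested genes outside the family with a mean level in the middle range of the members (log2 CPM 5.22 to 6.85) had a median log2 fold change of -0.17, and 15.2% of them rose at 0.001. The members are short, with a median exon length of 927 bases against 2152.5 for all tested genes. The 1293 other genes of 695 to 1187 bases had a median of 0.36, and 14.6% of them rose. Over the members Spearman's rho between log2 fold change and exon length was 0.20, again as a description. Members on the major chromosome arms had medians of 1.01 (2L, 18 tested), 0.99 (2R, 19), 1.27 (3L, 13), 1.21 (3R, 18) and 1.22 (X, 14), so no arm stood apart by more than the spread of the members.

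Duplicated copies were of very unequal use. In most duplications a single copy carried nearly all the counts. RpL10Aa, RpL37b and RpS28a had 0 counts in all 6 samples (at these depths, 3 counts would be at most 7.91e-06% of a library), while their partners RpL10Ab, RpL37a and RpS28b had 49055, 22454 and 28556 in all. RpS10a and RpS19b had 1 count each, both in M1BP RNAi replicate 2, against 21097 for RpS10b and 13253 for RpS19a. RpS5a had 36780 and RpS5b 72, of which 57 were in M1BP RNAi replicate 1. RpL22-like, a testis-enriched copy, had at most 4 counts in a sample and RpS28-like at most 2. None of these 8 low copies was tested, and no switch from the main copy to them was detectable at this depth.

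Of the main copies, RpS10b and RpS5a rose, as did RpL22, which shares 34.3% of its exon bases with a noncoding RNA gene on the same strand. RpS10b had 1975, 1416 and 2114 normalised counts in the WT samples and 5664, 4506 and 4062 in the M1BP RNAi samples. RpS5a had 2454, 2065 and 3371 in the WT samples and 9807, 7794 and 7901 in the M1BP RNAi samples, and RpL22 had 2163, 2011 and 2332 and 4134, 4304 and 4044. The groups stood apart in all 3, with log2 fold changes of 1.37 (SE 0.20, adjusted p = 0.000845), 1.69 (SE 0.20, adjusted p = 0.000384) and 0.94 (SE 0.11, adjusted p = 0.000401). RpL37a (1.53, SE 0.27, adjusted p = 0.0021), RpS19a (1.35, SE 0.23, adjusted p = 0.00192), RpS28b (0.71, SE 0.19, adjusted p = 0.0126) and RpL10Ab (0.48, SE 0.12, adjusted p = 0.00947) showed no overlap but did not pass 0.001.

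In 6 pairs both copies had enough counts to compare, as the log2 ratio of their counts within each library, which no scaling of libraries can change. With 3 samples a group the smallest exact two-sided permutation p is 0.1, and adjusted over the 6 pairs no p was below 0.3, so none of these differences can reach 0.05. The copies of RpS15A parted most. The log2 ratio of RpS15Aa to RpS15Ab was 2.33, 2.71 and 2.42 in the WT samples and 3.28, 3.23 and 3.42 in the M1BP RNAi samples. The groups did not overlap and the ratio was 0.82 higher upon M1BP RNAi (SD 0.20 in WT and 0.10 upon M1BP RNAi, exact permutation p = 0.1, adjusted p = 0.3). RpS15Aa, on the X, had 4817, 4925 and 5522 normalised counts in the WT samples and 7987, 6590 and 7242 in the M1BP RNAi samples, with a log2 fold change of 0.52 (SE 0.13, adjusted p = 0.0105), while RpS15Ab, on 2R, had the value below 0 given above.

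RpS14a and RpS14b lie side by side on the X (chrX:7933742-7934677 and chrX:7934898-7935792, both on the plus strand) and encode the same small subunit protein. RpS14a had 1866, 1226 and 2575 normalised counts in the WT samples and 7130, 5413 and 5093 in the M1BP RNAi samples, and RpS14b had 608, 434 and 872 and 1705, 1060 and 1230. The groups stood apart for both, with log2 fold changes of 1.64 (SE 0.27, adjusted p = 0.00171) and 1.06 (SE 0.28, adjusted p = 0.013). Their log2 ratio was 1.62, 1.50 and 1.56 in the WT samples and 2.06, 2.35 and 2.05 in the M1BP RNAi samples. It was 0.60 higher upon M1BP RNAi without overlap (exact permutation p = 0.1, adjusted p = 0.3). Reads that fit both copies would be missing from uniquely mapped counts, which bears on the levels of near-identical copies. For RpL34a and RpL34b no difference in ratio was detectable. It was -1.20, -0.77 and -1.34 in the WT samples and -1.18, -1.11 and -0.83 in the M1BP RNAi samples, a difference of 0.06 with overlapping groups (exact permutation p = 0.7, adjusted p = 0.7) that changed sign when single samples were left out. Of this pair RpL34a rose by 1.65 (SE 0.20, adjusted p = 0.000408), and RpL34b had 1.54 (SE 0.32) at an adjusted p of 0.00443.

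**Figure D4:**
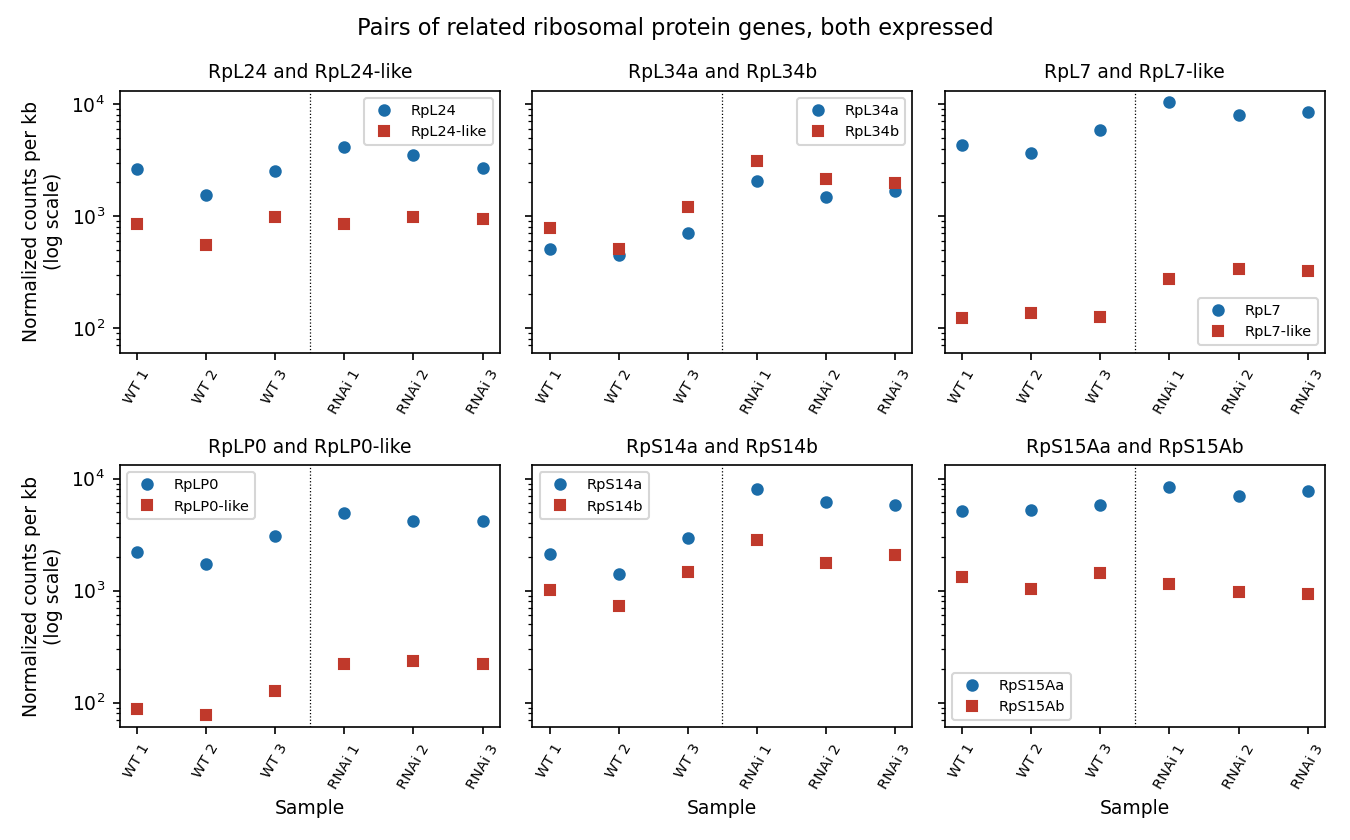
Level of the copies of each of the 6 compared pairs (y axis, normalised counts per kilobase of exon, log scale, shared by all panels) in the 3 WT and 3 M1BP RNAi samples (x axis, labelled RNAi), 1 point per sample, with the copy named first in blue circles and the other in red squares. RpS15Aa is higher in the M1BP RNAi samples while RpS15Ab is not, RpS14a parts further from RpS14b, and RpL34a and RpL34b are both higher by a similar factor.

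The 3 tested genes named as -like encode, by their yeast relatives, factors of large subunit assembly. They were counted above with the large subunit. RpL7-like had 219, 244 and 224 normalised counts in the WT samples and 488, 600 and 578 in the M1BP RNAi samples, far apart, and rose by 1.28 (SE 0.12, adjusted p = 0.000139). It shares 98.8% of its exon bases with CG34164 on the same strand and has the same counts in every sample, so the counts cannot be assigned to either gene. RpLP0-like had 82.2, 73.0 and 119 in the WT samples and 208, 221 and 208 in the M1BP RNAi samples, also without overlap, with a log2 fold change of 1.20 (SE 0.19) and an adjusted p of 0.00151. RpL24-like had 650, 423 and 751 in the WT samples and 658, 764 and 721 in the M1BP RNAi samples, and its groups overlapped. The log2 ratio of RpL7 to RpL7-like differed by -0.30 between M1BP RNAi and WT, that of RpLP0 to RpLP0-like by -0.28 and that of RpL24 to RpL24-like by 0.37 (exact permutation p = 0.4, 0.2 and 0.2, adjusted p = 0.48, 0.3 and 0.3). RpL7 had a log2 fold change of 0.95 (SE 0.20, adjusted p = 0.00528).

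Other parts of the translation apparatus were higher as well. All 72 mitochondrial ribosomal protein genes were tested, of which 36 rose and 0 fell at 0.001, while at 0.05 60 were higher and 1 was lower (1 was also lower at an unadjusted p under 0.05 in edgeR, and 0 in DESeq2 at 0.05). Their median log2 fold change was 1.15. The SD of the log2 fold change over genes was 0.72 for them, 0.52 for the cytosolic members, 0.53 for the ribosome biogenesis genes described below and 1.18 for all tested genes, differences that were not tested. More of them passed 0.001 at a similar median, and relative to the WT mean their median stood at 0.00, -0.13 and 0.17 in the WT samples, closer together than that of the cytosolic members. Of the cytosolic ribosomal proteins outside the symbol rule, sta (small subunit) had 0.58 (SE 0.29, adjusted p = 0.127) and Rack1 (small subunit) 0.64 (SE 0.21, adjusted p = 0.0303).

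Of 25 ribosome biogenesis genes 10 rose and 0 fell, with 23 higher at 0.05 and a median of 1.21 (0 lower at an unadjusted p under 0.05 in edgeR, and 0 in DESeq2). The largest subunit of RNA polymerase I, RpI1, had 123, 130 and 143 normalised counts in the WT samples and 657, 807 and 889 in the M1BP RNAi samples. The samples were far apart and RpI1 rose by 2.57 (SE 0.15, adjusted p = 1.53e-05). Ns1, the fly nucleostemin, rose by 1.70 (SE 0.21, adjusted p = 0.000403), while Tif-IA, the initiation factor of RNA polymerase I, had 0.14 (SE 0.14, adjusted p = 0.422). Of 7 elongation factor genes 3 rose and 0 fell, with all 7 higher at 0.05 and a median of 1.13 (0 lower at an unadjusted p under 0.05 in edgeR, and 0 in DESeq2). eEF1alpha2 had 1244, 1253 and 1556 normalised counts in the WT samples and 12408, 12106 and 12310 in the M1BP RNAi samples. The groups were far apart, and eEF1alpha2 rose by 3.18 (SE 0.14, adjusted p = 6.95e-06), more than any ribosomal protein gene, while eEF1alpha1 had 0.44 (SE 0.16, adjusted p = 0.0453). eEF2, which moves the ribosome along the mRNA, rose by 2.02 (SE 0.17, adjusted p = 8.19e-05).

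**Figure D5:**
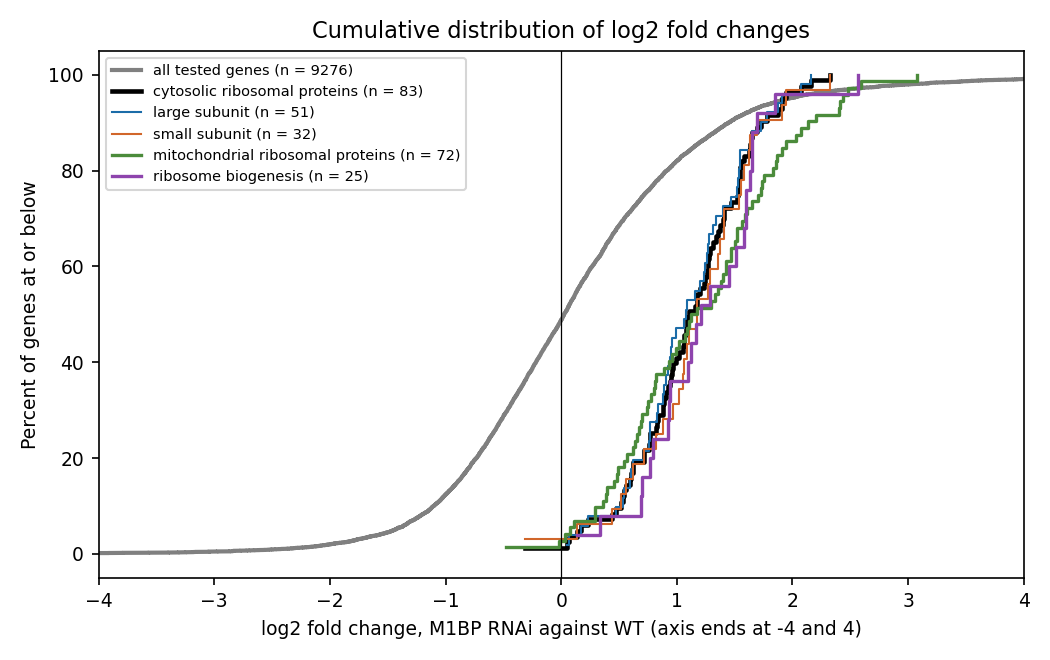
Distribution of log2 fold changes between M1BP RNAi and WT (x axis) for all 9276 tested genes, the 83 ribosomal protein genes with the large and the small subunit also drawn apart, the 72 mitochondrial ribosomal protein genes and the 25 ribosome biogenesis genes, as the cumulative share of genes in percent (y axis), with genes beyond the ends of the x axis not shown. The ribosomal protein curve rises around its median of 1.10, to the right of the curve of all tested genes with its median of 0.02, near that of the mitochondrial ribosomal proteins (median 1.15).

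Among 14 genes known to bear on ribosomal protein transcription or translation, 2 rose and 3 fell, 1 of the latter being the depleted M1BP itself. At 0.05, 4 were higher and 8 lower. Of all tested genes, 11.0% rose and 6.58% fell at 0.001, and 29.1% were higher and 27.0% lower at 0.05. The shares of the list that were higher were thus near those of all tested genes. The falls in this list depended on the scaling, as libraries scaled by total counts gave Trf2 -0.03, Mnt -0.17 and S6k -0.0010, none of which then passed 0.05. Neither Mnt nor S6k passed 0.001 when any sample was left out. Trf2 had 1381, 1305 and 1432 normalised counts in the WT samples and 772, 927 and 719 in the M1BP RNAi samples. Its groups did not overlap, with a log2 fold change of -0.77 (SE 0.13) and an adjusted p of 0.00187. Dref, a promoter factor of many growth genes, had -0.48 (SE 0.11, adjusted p = 0.00844), with a sign that turned when libraries were scaled by total counts. Myc, an activator of ribosome genes, had 626, 831 and 618 in the WT samples and 1343, 2404 and 2131 in the M1BP RNAi samples, all M1BP RNAi samples being higher, with a log2 fold change of 1.50 (SE 0.23) and an adjusted p of 0.00127. Its antagonist Mnt fell by 0.92 (SE 0.12, adjusted p = 0.000613). Xrp1, a transcription factor that flies with a ribosomal protein gene mutation induce, had 4111, 4452 and 4710 in the WT samples and 26279, 31028 and 30588 in the M1BP RNAi samples. Its groups were far apart, and it rose by 2.73 (SE 0.14, adjusted p = 9.29e-06), while its partner Irbp18 rose by 1.20 (SE 0.15, adjusted p = 0.000467). S6k, the kinase of RpS6, fell by 0.75 (SE 0.10, adjusted p = 0.000676), and Tor, which acts above it, had -0.62 (SE 0.12, adjusted p = 0.00402), which turned to above 0 under scaling by total counts. RpS6 itself had 2424, 1346 and 3026 normalised counts in the WT samples and 6184, 4317 and 3947 in the M1BP RNAi samples, without overlap (log2 fold change 1.09, SE 0.30, adjusted p = 0.0173). Exons of RpS6 overlap other genes over 16.9% of their bases on the same strand.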

How the data were processed

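Total RNA of the 6 flight muscle samples was made into stranded polyA libraries and sequenced by the authors, who deposited raw counts of uniquely mapped reads over the exons of each gene (release 6, dm6). The tools named in the submitters' processing notes are bcl2fastq 2.17.1.14, Subread, featureCounts and DESeq2 1.3.0. Whether the counting used strand is not given in the sources used here. The authors' comparison table holds fold changes and p-values, of which none was used, and served only to pair gene IDs with symbols.

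Counts were tested with the quasi-likelihood test of edgeR 4.0.16 (R 4.3.3) with TMM factors, filterByExpr and Benjamini-Hochberg adjustment over 9276 genes, at the study's threshold of 0.001 and also at 0.05. The study also required a fold change, which was not applied here and which 0 of the genes past 0.001 would have missed at 1.5-fold. The 8 members left out by the filter are named with their counts. Ratios of copies used a prior count of 0.5 and exact permutation tests, over pairs with at least 10 counts in 3 samples for each copy. Members, lists and tests were chosen with earlier results of these data known. The members named were those of duplicated pairs or with -like, those past 0.001, the 5 highest and 5 lowest by fold change and by WT level, the stalk genes and RpL32; RpL10, RpL23, RpL40 and RpS6 were chosen after their values were seen. Of the 91 members, 5 share over 10% of their exon bases with a gene on the same strand and 7 with one on the opposite strand (RpS9 50.3%, RpL24 21.6%), so that their counts are uncertain. Of 200 genes changed by 2 on the log2 scale, more than most members, in simulated counts over 9276 genes, edgeR recovered 100% with 0 false calls. The simulation gave every gene the same low dispersion and changed only genes above the median level. It therefore does not measure power or false calls at the spread of these members. Counting floors cover counting error only. Promoter motifs were not analysed here, and 1 tested member is counted but not reported by itself.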

Additional observations from a re-analysis of the deposited data

How the results depend on the processing

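The direction of the family held under every alternative run, with 0 members lower at 0.001 in each (at 0.05, RpS15Ab was lower with upper quartile factors and without WT replicate 2), while the number past 0.001 did not. The 19 members higher became 47 with scaling by total library size, 68 with DESeq2 without the count filter, 29 without a filter on low counts, 73 at an adjusted p of 0.05, and 1 to 14 when 1 replicate was left out. The 1626 genes called in all became 2713, 3038, 1972, 5209 and 602 to 1278 under the same changes. DESeq2 on the genes kept by the filter, added after the data were seen, called 67 members and 3049 genes. RLE factors, a filter of 50 counts, leaving out genes of mtDNA and upper quartile factors gave 19, 19, 17 and 13 members. Scaling by total library size moved the member median from 1.10 to 1.84, that of the large subunit from 1.08 to 1.83 and that of the small subunit from 1.17 to 1.91, along with the median of all genes, and the median level per kilobase upon M1BP RNAi from 6033 to 7668. The members minus all tested genes, a quantity added after the data were seen, stayed between 1.02 and 1.13 over these scalings and filters and between 0.89 and 1.31 with 1 replicate left out. Member medians with 1 replicate left out were 0.93 to 1.36 (large subunit 0.90 to 1.26, small subunit 1.01 to 1.43).

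A pairing of the samples by replicate number was not detected, though correlations of deviations from group means cannot show that no preparation was shared. Same-numbered samples had correlations of their deviations of 0.05, 0.18 and -0.02 over 9276 genes, and not every sample correlated best with its own number. With the replicate block, 6 members and 790 genes in all passed 0.001.

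Among the named genes, signs turned only for genes that passed 0.001 in neither fit. With upper quartile factors RpL29 was at -0.091, RpL41 at -0.078, RpS4 at -0.0033 and Tif-IA at -0.0071. With total library size RpS15Ab was at 0.43, Dref at 0.26, Tor at 0.11 and TpnC4 at 0.53. Without WT replicate 2 RpL29 was at -0.058, and without M1BP RNAi replicate 1 RpL29 was at -0.030 and RpL41 at -0.072, the other fits with 1 replicate left out reaching 0.17 and 0.22. With 1 replicate left out, the differences in log2 ratio of copies ranged from 0.74 to 0.93 for RpS15A, 0.50 to 0.65 for RpS14 and -0.056 to 0.23 for RpL34. The promoter motif share and its second window were not run. The causes of these changes were not tested.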

Other observations

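The counts also list ribosomal RNA, which polyA selection removes in most part. The gene 28SrRNA:CR45844 had 5423, 7645 and 8098 raw counts in the WT samples and 23726, 15217 and 27819 in the M1BP RNAi samples, with a log2 fold change of 1.07 (edgeR, adjusted p = 0.00348). The 18S genes did not show this, with log2 fold changes of 0.52 for 18SrRNA:CR41548, 0.23 for 18SrRNA:CR45838 and -1.36 for 18SrRNA:CR45841 (adjusted p = 0.101, 0.486 and 0.209). The gene pre-rRNA:CR45847 spans the same unit as 28SrRNA:CR45844, so the counts of these genes are not independent. What is left of rRNA after selection need not follow its amount in the tissue.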
